A study of Homo sapiens with 8 samples.

Results

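The hypoxia-inducible factors (HIFs) and a set of their target genes outside glycolysis were followed in the MDAMB231 breast cancer line and in sublines of it that lack the SDHB subunit of complex II. The set had 35 genes, chosen by name for their known place in the HIF pathway and found by symbol among the 58051 genes of the count data. They were sorted by known role into 5 HIF factors and regulators, 8 secreted and surface ligands, 4 enzymes of pH and matrix, 4 mitochondrial proteins, 9 regulators of transcription and stress, and 5 proteins of glycogen and lipid storage. RNA was sequenced from 2 samples of unmodified parental cells, 3 samples of cells with a knockout of SDHB (SDHB KO) and 3 samples of SDHB knockout cells that also carried a knockdown of SDHA (SDHB KO SDHA low, called SDHA low below). MDAMB231 is an established triple-negative line with a mesenchymal character. All cells were untreated and were collected below full confluency in complete medium. SDHB was disrupted in exon 1 with a TALEN nuclease, and the sources used here do not say whether the sublines are single clones. The knockdown group is compared with knockout cells and not with cells holding an empty vector, so that the knockdown and its vector cannot be told apart. The samples are labelled biological replicates, and the p-values measure the spread between these samples. The study made knockdown lines with 2 SDHA shRNAs and names the sequenced group SH1. Differences between shRNAs or between knockout lines were not tested.

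HIF is a transcription factor of an oxygen-labile alpha subunit and a constant partner, ARNT. When oxygen is present, prolyl hydroxylases mark the alpha subunit, VHL binds the marked protein and it is degraded, so that HIF activity is set mostly at the level of protein. Succinate, the substrate of complex II, can inhibit the hydroxylases, and tumours without SDHB are known for a pseudohypoxic state in which HIF targets are on although oxygen is present. In breast cancer the targets are known for angiogenesis, acid export, remodelling of collagen, mitophagy and storage of fuel.

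Libraries read the 3′ end of polyadenylated RNA, and the samples held 773042 to 1427141 reads counted on genes, a shallow depth at which 3 reads in a sample equal 2.1 to 3.88 counts per 1000000 reads on genes (CPM). SDHA fitted the label of SDHA low cells, with 7, 17 and 16 reads there, 64 and 69 in parental cells and 108, 121 and 140 in SDHB KO samples. The higher reads in SDHB KO than in parental samples are not something the labels give. SDHB had 4 and 3 reads in parental cells, 0, 3 and 1 in SDHB KO samples and 0, 2 and 1 in SDHA low cells. In CPM all SDHB-null samples, with at most 3.34, lay below both parental samples (4.63 and 3.98), where 7.85% of the tested genes did. SDHB itself was not tested, and these reads were too few to check the knockout. The edit in exon 1 is not itself read, since the reads come from the other end of the transcript. The mesenchymal markers VIM, CD44, AXL, CAV1 and MSN were present in all samples, and MSN rose in SDHA low against parental cells (log2 fold change 0.84, adjusted p = 0.0905 in edgeR). The MSN call was lost without parental replicate 1 (adjusted p = 0.848) or 2 (0.388), SDHB KO replicate 1 (0.105) or 3 (0.112) or SDHA low replicate 1 (0.261), and with only the groups compared (0.143). ESR1, PGR, PTPRC and CDH5 had 0 reads in all samples, FOXA1 had 0 to 1, CDH1 had 0 to 2, and PECAM1, which marks endothelium, had 2, 2 and 0 in SDHB KO samples and 0 elsewhere. GATA3, which marks luminal cells, had 8 to 20 reads per sample. The share of reads not assigned to a gene was highest in SDHB KO samples, at 26.0% to 28.6%, against 22.3% and 22.5% in parental cells. In SDHA low cells it was 18.8% to 24.4%, on both sides of the parental samples. The part of MSN, of PECAM1 and of this share in the results was not tested.

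Of the 35 genes, 25 had a mean normalized count above 5 and entered the test with 7550 genes in all. A gene was called when its p-value from the quasi-likelihood test of edgeR, adjusted by the Benjamini-Hochberg method over all genes tested, was below 0.1. In SDHB KO cells against parental cells 0 of the 25 were called, where 5.54% of all tested genes were. By the same test 0 of the 25 were called in SDHA low against SDHB KO cells (1.51% of all genes), 0 in SDHA low against parental cells (0.914%), and 0 in the mean of both SDHB-null groups against parental cells (3.91%). An unadjusted p below 0.05 was seen for 3, 1, 3 and 2 of the 25 in these comparisons, in the same order, where 17.5%, 12.1%, 12.3% and 15.4% of all genes had one. DESeq2 called 1, 0, 0 and 0 of the genes, where it called 394, 128, 79 and 244 of all genes. Its own filter left only 7, 12, 10 and 10 of the 25 with an adjusted p, and how many of all genes kept one was not counted.

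The log2 fold changes of the 25 genes were spread on both sides of 0. In SDHB KO against parental cells 15 were positive (49.9% of all genes) and 10 negative, with a median of 0.16 and a range of -1.51 to 1.16, while the median of all genes was -0.001. For SDHA low against SDHB KO cells 12 were positive (51.1% of all genes) and 13 negative, with a median of -0.02 against 0.013 for all genes. In SDHA low against parental cells 13 were positive (51.4%) and 12 negative, with a median of 0.22 against 0.017. The standard errors in SDHB KO against parental cells ran from 0.23 to 0.72. The 95% interval of the log2 fold change stayed below 1, a doubling, for 12 of the 25 genes in SDHB KO cells (61.1% of all genes). It did so for 13 of the 25 in SDHA low cells against parental cells (63.7%). For the others a doubling lay within the interval.

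**Figure D1:**
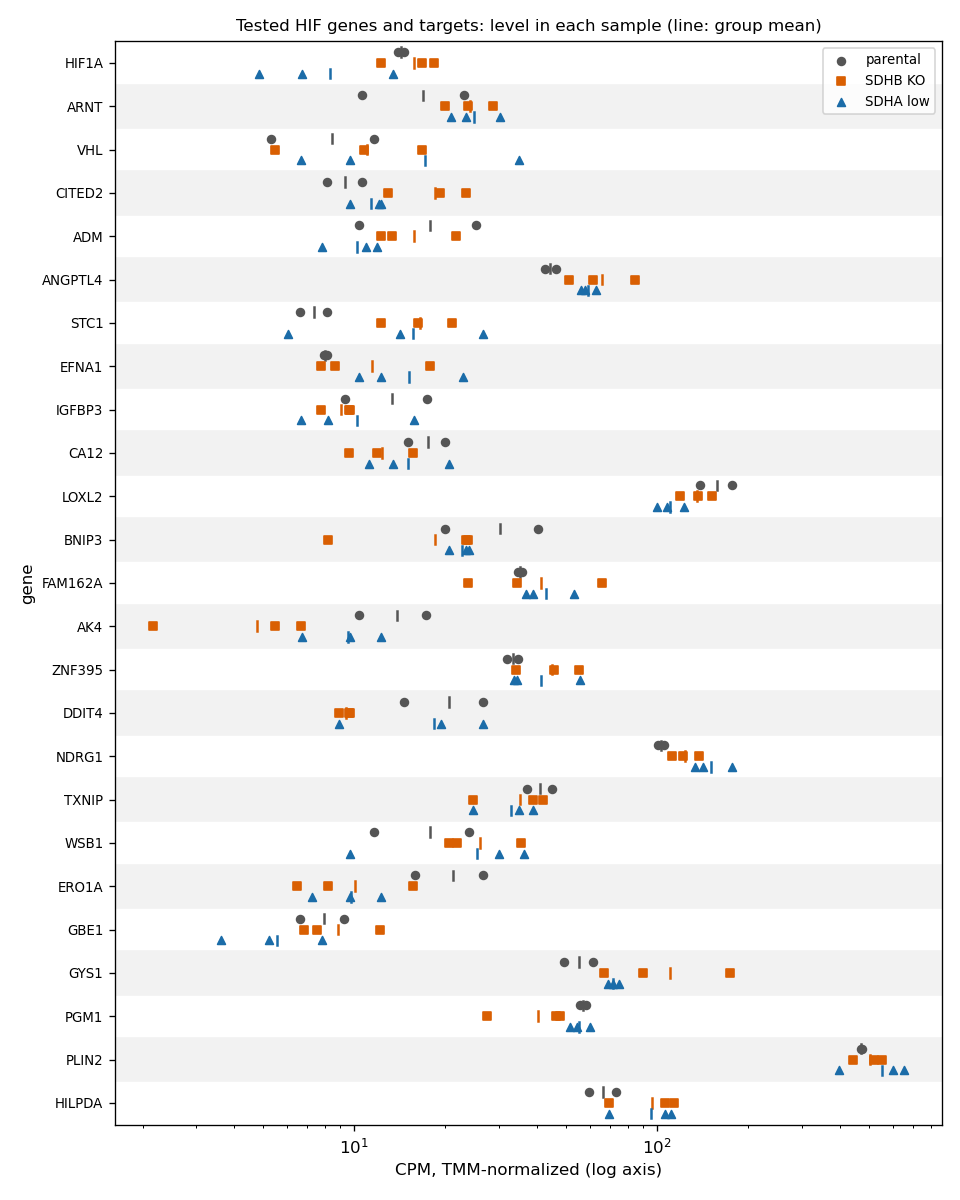
CPM of the 25 tested HIF genes and targets in each of the 8 samples (x axis, log scale; 1 gene per line on the y axis), with parental samples as grey circles, SDHB KO samples as orange squares, SDHA low samples as blue triangles and a short line at each group mean. For 11 of the 25 genes all pairs of groups overlap, while the 3 SDHB KO samples of GYS1 lie above both parental samples and those of AK4 and DDIT4 below them.

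**Figure D2:**
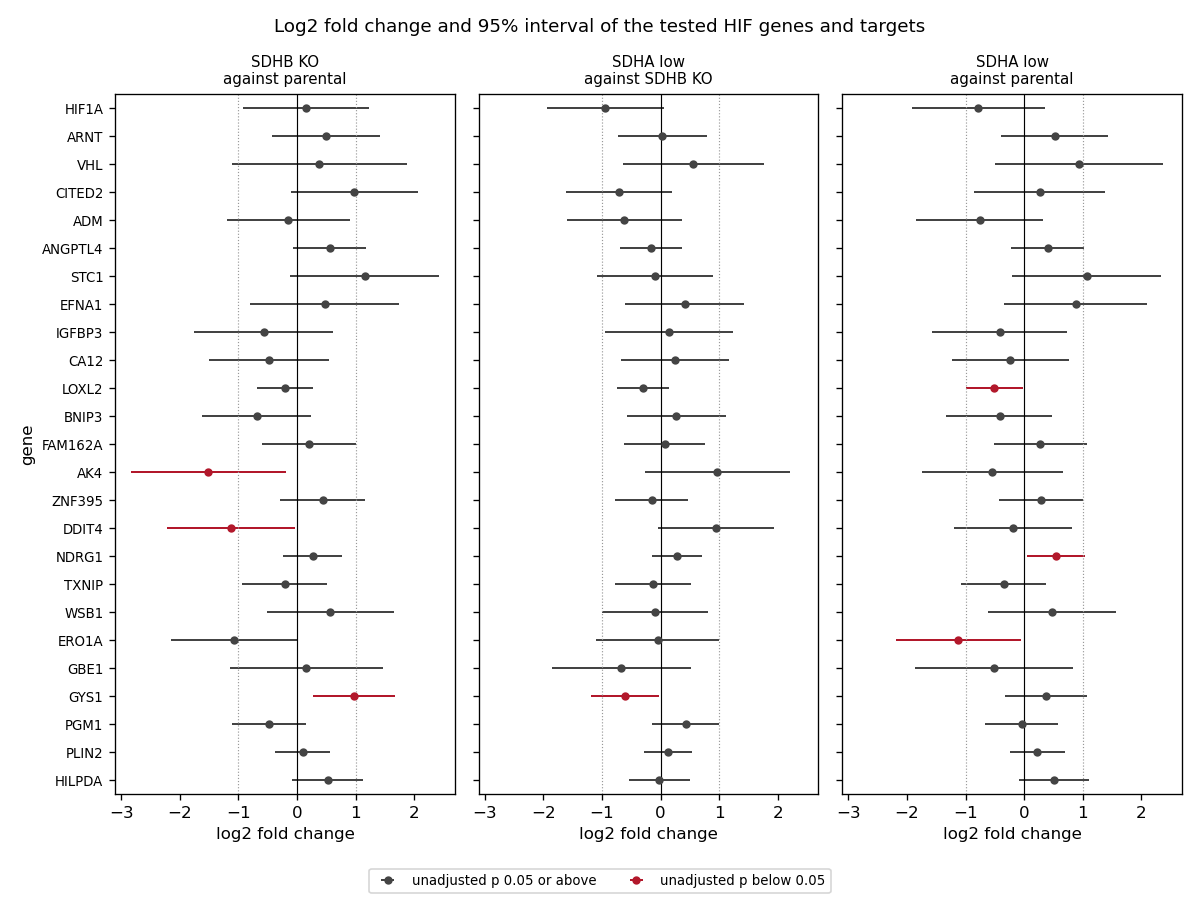
Log2 fold change (x axis) with its 95% interval for the 25 tested genes (y axis) in the 3 pairwise comparisons, with dotted lines at -1 and 1 and in red the genes with an unadjusted p below 0.05. The red genes number 3, 1 and 3 from left to right, and 0 of them passed the adjustment over all genes.

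Levels are given below as CPM of the tested genes after the samples were scaled by TMM, and each change as a log2 fold change with its standard error (SE). A CPM is a level and a log2 fold change a difference between groups. Samples are named in the order of their replicate numbers.

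Among the factors and regulators, 4 of 5 were tested and 0 were called in any comparison. HIF1A, the oxygen-labile subunit of HIF-1, measured 13.9 and 14.6 CPM in parental cells, 12.3, 16.7 and 18.3 in SDHB KO samples and 4.83, 6.72 and 13.4 in SDHA low cells. The SDHB KO samples lay around the parental ones, and all SDHA low samples lay below both parental samples, from 4 to 12 reads. Its log2 fold change came to 0.16 (SE 0.52) in SDHB KO and -0.78 (SE 0.54) in SDHA low cells against parental cells, with adjusted p = 0.918 and 0.602 in edgeR. In RNA of whole cultures, a difference in the share of cells with a transcript and one in its amount per cell could not be told apart. A pseudogene and an antisense gene of HIF1A exist, and how strand was used in the counting is not given in the sources used here. ARNT, the partner of the alpha subunits, measured 23.1 and 10.6 CPM in parental cells, 28.7, 20 and 23.7 in SDHB KO samples and 30.2, 20.9 and 23.4 in SDHA low cells. The parental samples differed from each other by more than the groups did. VHL, which binds the hydroxylated alpha subunit for degradation, was likewise scattered, from 5.31 to 35 CPM, and its highest value was in replicate 1 of SDHA low cells. CITED2, a HIF target that competes with HIF for its coactivators, measured 8.1 and 10.6 CPM in parental cells, 19.2, 23.3 and 12.9 in SDHB KO samples and 12.1, 9.7 and 12.3 in SDHA low cells. Its SDHB KO samples lay above those of both other groups, with a log2 fold change of 0.98 (SE 0.52) against parental cells and an adjusted p of 0.345 in edgeR. In SDHA low against SDHB KO cells its log2 fold change was -0.71 (SE 0.43).

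Of the ligands, 5 of 8 were tested and 0 were called. ANGPTL4, a secreted inhibitor of lipoprotein lipase, had 46.3 and 42.5 CPM in parental cells, 61.6, 51.1 and 84.2 in SDHB KO samples and 62.8, 56.0 and 57.9 in SDHA low cells. All 6 SDHB-null samples lay above both parental samples, with log2 fold changes of 0.56 (SE 0.3) and 0.40 (SE 0.3), and adjusted p = 0.339 and 0.627 in edgeR. STC1, a secreted glycoprotein linked to calcium and phosphate balance, had 8.1 and 6.64 CPM in parental cells, 12.3, 21.1 and 16.2 in SDHB KO samples and 6.03, 14.2 and 26.7 in SDHA low cells. Its SDHB KO samples lay above both parental samples, and the SDHA low samples lay on both sides of them. Its log2 fold change of 1.16 (SE 0.62) in SDHB KO cells had an interval from -0.12 to 2.43 and an adjusted p of 0.342 in edgeR. EFNA1, a membrane-anchored ligand of Eph receptors, had 8.1 and 7.96 CPM in parental cells and 22.9, 10.4 and 12.3 in SDHA low cells, which did not overlap, and 17.8, 7.78 and 8.63 in SDHB KO cells, which did. ADM, a vasodilator peptide, had 10.4 and 25.2 CPM in parental cells, 12.3, 13.3 and 21.6 in SDHB KO samples and 10.9, 11.9 and 7.8 in SDHA low cells. The last group lay below SDHB KO cells, with a log2 fold change of -0.62 (SE 0.47). IGFBP3, a carrier of insulin-like growth factors, ranged from 6.69 to 17.4 CPM and overlapped in all comparisons.

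The enzymes of pH and matrix gave 2 of 4 tested genes. CA12, a carbonic anhydrase of the cell surface, ranged from 9.58 to 20.5 CPM with overlapping groups and log2 fold changes of -0.48 (SE 0.49) and -0.24 (SE 0.48) in SDHB KO and SDHA low cells against parental cells. LOXL2, which cross-links collagen, had 138 and 177 CPM in parental cells, 119, 136 and 152 in SDHB KO samples and 100, 108 and 123 in SDHA low cells. The SDHA low samples lay below both parental samples, and SDHB KO cells overlapped with both other groups. Its log2 fold change in SDHA low against parental cells was -0.51 (SE 0.23), with an unadjusted p of 0.0414 and an adjusted p of 0.374 in edgeR.

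Of the mitochondrial proteins 3 of 4 were tested. AK4, an adenylate kinase of the mitochondrial matrix, had 10.4 and 17.3 CPM in parental cells, 5.47, 6.67 and 2.16 in SDHB KO samples and 9.65, 6.72 and 12.3 in SDHA low cells. All SDHB KO samples lay below both other groups, from 2 to 6 reads. The log2 fold change came to -1.51 (SE 0.64) in SDHB KO against parental cells and 0.97 (SE 0.6) in SDHA low against SDHB KO cells, with adjusted p = 0.209 and 0.541 in edgeR. AK4 has 5 pseudogenes in the annotation. BNIP3, a mitophagy receptor with 44 pseudogenes in the annotation, had 40.5 and 19.9 CPM in parental cells, 8.21, 23.3 and 23.7 in SDHB KO samples and 20.5, 23.9 and 23.4 in SDHA low cells. Its parental samples lay farther apart than the group means, and its log2 fold change in SDHB KO cells was -0.69 (SE 0.45). FAM162A, a HIF-induced mitochondrial protein, had 34.7 and 35.8 CPM in parental cells and 23.7 to 65.7 in SDHB KO cells, where the samples lay on both sides of the parental ones.

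Among the regulators of transcription and stress 6 of 9 were tested and 0 were called. DDIT4, an inhibitor of the growth kinase mTOR, had 26.6 and 14.6 CPM in parental cells, 9.58, 8.89 and 9.71 in SDHB KO samples and 26.6, 19.4 and 8.91 in SDHA low cells. The SDHB KO samples were close to each other and below both parental samples, while SDHA low samples covered the whole range. The log2 fold change came to -1.13 (SE 0.53) in SDHB KO against parental cells and 0.95 (SE 0.48) in SDHA low against SDHB KO cells, with adjusted p = 0.262 and 0.432 in edgeR. ERO1A, an oxidase that makes disulfide bonds in the endoplasmic reticulum, had 26.6 and 15.9 CPM in parental cells, 8.21, 15.6 and 6.47 in SDHB KO samples and 7.24, 9.7 and 12.3 in SDHA low cells. All 6 SDHB-null samples lay below both parental samples, the nearest by less than 1 CPM. The log2 fold change was -1.07 (SE 0.52) and -1.12 (SE 0.51), and -1.10 (SE 0.45) in the mean of both groups, with adjusted p = 0.29, 0.374 and 0.235 in edgeR. NDRG1, a protein of the stress response, had 101 and 105 CPM in parental cells, 137, 122 and 112 in SDHB KO samples and 176, 142 and 133 in SDHA low cells. All SDHB-null samples lay above both parental samples, with log2 fold changes of 0.27 (SE 0.24) and 0.54 (SE 0.24) against parental cells. The adjusted p was 0.612 and 0.352 in edgeR. TXNIP, which binds thioredoxin, ZNF395, a zinc finger protein, and WSB1, a substrate receptor of a ubiquitin ligase, overlapped in all comparisons, with log2 fold changes of -0.21 (SE 0.35), 0.44 (SE 0.35) and 0.57 (SE 0.52) in SDHB KO against parental cells.

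All 5 genes of glycogen and lipid storage were tested, and among them was the gene nearest to the threshold. GYS1, the glycogen synthase of muscle and most other tissues, had 61.3 and 49.1 CPM in parental cells, 174, 66.7 and 89.6 in SDHB KO samples and 68.8, 74.6 and 71.3 in SDHA low cells. All 6 SDHB-null samples lay above both parental samples, and replicate 1 of SDHB KO cells stood far above the others. In SDHB KO against parental cells GYS1 was 1.97-fold, a log2 fold change of 0.98 (SE 0.33, interval 0.28 to 1.67), with an unadjusted p of 0.00808 and an adjusted p of 0.119 in edgeR. Without replicate 1 of SDHB KO cells the log2 fold change was 0.50, with an adjusted p of 0.463. DESeq2 called the gene, with a log2 fold change of 1.0 and an adjusted p of 0.0952. The SDHA low cells had a log2 fold change of 0.37 (SE 0.34) against parental and -0.60 (SE 0.28) against SDHB KO cells. Of the other enzymes of glycogen, PGM1, which interconverts glucose phosphates, had 55.5 and 58.4 CPM in parental cells, 27.4, 47.8 and 46.4 in SDHB KO samples and 54.3, 51.5 and 60.2 in SDHA low cells. Its SDHB KO samples lay below both other groups, with a log2 fold change of -0.48 (SE 0.31) against parental cells and an adjusted p of 0.446 in edgeR. GBE1, the branching enzyme, had 3 to 11 reads per sample and overlapped in all comparisons. GYS1 and PGM1 thus had log2 fold changes of opposite sign in SDHB KO cells, and neither was called by edgeR. PLIN2, which coats lipid droplets, had the most reads of the set, with 470 and 473 CPM in parental cells, 520, 551 and 442 in SDHB KO samples and 599, 398 and 655 in SDHA low cells. Its groups overlapped, and the log2 fold change in SDHB KO against parental cells was 0.10 (SE 0.23), with an interval from -0.37 to 0.57 that holds no doubling. HILPDA, a lipid droplet protein that inhibits lipolysis, had 72.9 and 59.7 CPM in parental cells, 114, 106 and 69.1 in SDHB KO samples and 111, 69.4 and 106 in SDHA low cells. In each SDHB-null group 1 sample reached down to the parental range, and the log2 fold changes were 0.53 (SE 0.29) and 0.51 (SE 0.29), with adjusted p = 0.362 and 0.498 in edgeR.

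HIF binds the core sequences ACGTG and GCGTG, and the 250 bases before each start in RefSeq (GRCh38.p14) were searched for them on both strands. In capitals are all matches in the promoters of GYS1, the gene nearest to the threshold, and of DDIT4, a gene of opposite sign, each with 1 listed start. The window of GYS1 lies at chr19:48993310-48993559 on the minus strand and that of DDIT4 at chr10:72273674-72273923 on the plus strand, both printed 5′ to 3′ along the gene.
GYS1: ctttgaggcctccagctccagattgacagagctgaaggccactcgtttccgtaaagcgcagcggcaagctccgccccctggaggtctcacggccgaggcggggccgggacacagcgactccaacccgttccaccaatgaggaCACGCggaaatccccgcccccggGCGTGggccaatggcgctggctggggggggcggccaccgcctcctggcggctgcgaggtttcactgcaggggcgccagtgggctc
DDIT4: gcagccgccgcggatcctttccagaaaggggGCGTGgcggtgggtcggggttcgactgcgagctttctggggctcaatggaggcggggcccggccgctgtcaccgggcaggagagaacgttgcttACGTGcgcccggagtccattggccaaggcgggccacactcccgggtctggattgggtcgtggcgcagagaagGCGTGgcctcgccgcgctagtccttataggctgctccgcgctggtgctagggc
The GYS1 window held 2 matches to GCGTG, 1 of them as CACGC on the other strand, and 0 to ACGTG. The DDIT4 window held 3 matches, 1 to ACGTG and 2 to GCGTG. RefSeq promoters were at hand for 27 of the 35 genes, with 40 starts, and 85.0% of these windows held either core, against 43.2% of 35116 windows of all genes and 57.5% of 8931 windows of the genes tested here. ACGTG alone was in 47.5% of the windows of the set, 18.5% of all windows and 22.9% of those of tested genes. Of the 28 windows of the genes of the set that were tested, 82.1% held either core and 42.9% held ACGTG. The genes were chosen as HIF targets, so the shares describe that choice.

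The remaining 10 genes had too few reads to be tested. CA9, the carbonic anhydrase most used as a marker of hypoxia, had 0 reads in all 8 samples, which at a limit of 3 reads allows up to 0.408 CPM over all samples together. VEGFA, the main angiogenic factor, had 8 and 2 reads in parental cells, 2, 3 and 3 in SDHB KO samples and 3, 3 and 7 in SDHA low cells. EPAS1, the alpha subunit of HIF-2, had 2 and 4 reads in parental cells, 1, 1 and 2 in SDHB KO samples and 0, 3 and 1 in SDHA low cells. In VEGFA and EPAS1 the parental samples had a higher CPM, pooled over the group, than either SDHB-null group (6.21 against 3.05 and 4.17 for VEGFA, 3.72 against 1.53 and 1.28 for EPAS1). For VEGFA parental replicate 1 had 9.26 CPM, while replicate 2, with 2.65, lay below all SDHB KO samples (2.74, 3.34 and 3.24). For EPAS1 all SDHB-null samples, with 0 to 2.24 CPM, lay below both parental samples (2.31 and 5.31). LOX, a second cross-linking enzyme of the matrix, had 0 reads in both parental samples, 0, 1 and 3 in SDHB KO samples and 4, 5 and 4 in SDHA low cells. With 3 reads over the parental group as the floor, the pooled CPM of LOX in SDHA low cells was 2.24-fold that floor. In SDHB KO cells it did not reach that floor in CPM. The ratio takes the reads of SDHA low cells without an error of their own, so it is not a lower limit of the change. EFNA3, another ligand of Eph receptors, had 1 and 1 reads in parental cells, 2, 8 and 11 in SDHB KO samples and 6, 12 and 2 in SDHA low cells, and ANKRD37, an ankyrin repeat protein, had 1 and 3, then 4, 4 and 4, then 11, 11 and 4. In EFNA3 and ANKRD37 all SDHB-null samples had a higher CPM than both parental samples. Of the tested genes 7.99% were above and 7.85% below in this way, and the share among genes not tested was not counted. When the filter was dropped, the adjusted p in edgeR was 0.245 and 0.533 for EFNA3 in SDHB KO and SDHA low against parental cells, 0.652 for ANKRD37 and 0.387 for LOX in SDHA low against parental cells. The end of ANKRD37 overlaps UFSP2 on the opposite strand, and the end of LOX overlaps SRFBP1 in the same way. BNIP3L, the second mitophagy receptor, had 2 to 7 reads per sample, BHLHE40, a transcriptional repressor, 2 to 8, MXI1, a partner of MAX that opposes MYC, 0 to 2, and STC2, a relative of STC1, 0 to 3.

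**Figure D3:**
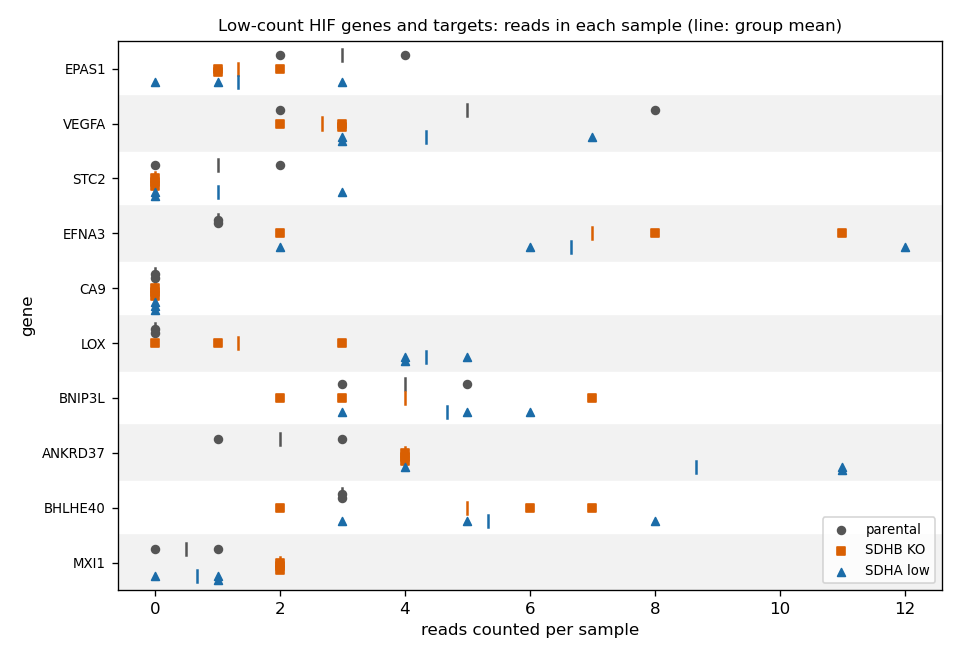
Reads per sample (x axis) of the 10 genes that were not tested (y axis), with parental samples as grey circles, SDHB KO samples as orange squares, SDHA low samples as blue triangles and a line at each group mean. No gene reached more than 12 reads in a sample, CA9 had 0 in all 8, and LOX had 0 in both parental samples.

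Samples that do not overlap between groups were about as frequent among the 25 tested genes as among all genes. In SDHB KO against parental cells 5 genes (CITED2, ANGPTL4, STC1, NDRG1 and GYS1) were above and 4 (AK4, DDIT4, ERO1A and PGM1) below, where 19.3% of all genes were above and 18.6% below. In SDHA low against parental cells 5 genes were above (ANGPTL4, EFNA1, FAM162A, NDRG1 and GYS1) and 3 below (HIF1A, LOXL2 and ERO1A), where the shares of all genes were 15.2% and 15.5%. For SDHA low against SDHB KO cells AK4 and PGM1 were above and CITED2 and ADM below, where 8.7% and 8.69% of all genes were. ANGPTL4, NDRG1 and GYS1 were above and ERO1A below the parental samples in all 6 SDHB-null samples, where 7.99% and 7.85% of all genes were.

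The question of whether the knockdown of SDHA moved the genes back toward parental levels cannot be read from the comparisons side by side alone, since both use the SDHB KO samples. For AK4 the log2 fold change came to -1.51 in SDHB KO against parental and 0.97 in SDHA low against SDHB KO cells, for DDIT4 -1.13 and 0.95, and for PGM1 -0.48 and 0.43. For CITED2 it was 0.98 and -0.71, and for GYS1 0.98 and -0.60. For ERO1A it was -1.07 and -0.05, and for NDRG1 0.27 and 0.28. For STC1 it was 1.16 and -0.09, and for ANGPTL4 0.56 and -0.16. These are all the tested genes of the set whose SDHB KO samples did not overlap with the parental samples. By edgeR 0 of these values were called.

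Other parts of the HIF pathway, in lists chosen with earlier results of these data known, held single genes that were called. Of 12 further components of the pathway (the other HIF and ARNT genes, hydroxylases, the ubiquitin ligase of VHL and coactivators) 8 were tested, and HIF1AN rose in SDHB KO against parental cells, where 3.14% of all genes were called higher. HIF1AN encodes the asparaginyl hydroxylase that blocks the binding of HIF to its coactivators. It had 224 and 277 CPM in parental cells, 469, 358 and 405 in SDHB KO samples and 294, 309 and 308 in SDHA low cells, 3 groups without overlap. Its log2 fold change in SDHB KO against parental cells was 0.71 (SE 0.22), with an adjusted p of 0.0835 in edgeR and 0.023 in DESeq2. The call was lost without parental replicate 1 (adjusted p = 0.605) or 2 (0.232) and without SDHB KO replicate 1 (0.228) or 3 (0.167), and with no filter on low counts (0.117). For SDHA low against SDHB KO cells HIF1AN had a log2 fold change of -0.43 (SE 0.19) and an adjusted p of 0.355 in edgeR.

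Of 21 glycolytic HIF targets 19 were tested, and the count called was 0, 1, 0 and 0 in the 4 comparisons, in the order used above. An unadjusted p below 0.05 in edgeR was seen for 5, 5, 3 and 5 of the 19, where 17.5%, 12.1%, 12.3% and 15.4% of all genes had one. TPI1, the glycolytic enzyme that interconverts the triose phosphates, fell in SDHA low against SDHB KO cells, where 1.19% of all genes were called lower. It had 1070 and 1160 CPM in parental cells, 1210, 1090 and 1140 in SDHB KO samples and 666, 582 and 761 in SDHA low cells, which lay below both other groups. The log2 fold change was -0.78 (SE 0.18), with an adjusted p of 0.0342 in edgeR, and the call was lost when samples were left out, namely SDHB KO replicate 1 (adjusted p = 0.14) or 3 (0.136) or SDHA low replicate 1 (0.128). DESeq2 called GPI (log2 fold change 0.56) and LDHA (-0.66) in SDHB KO against parental cells and TPI1 (-0.73) in SDHA low against parental cells. GPI and LDHA were named after their values were seen.

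Of 19 other HIF targets 8 were tested, and MIF was called. MIF, a secreted cytokine, fell in SDHB KO cells, where 2.4% of all genes were called lower, with 27.8 and 23.9 CPM in parental cells, 2.74, 4.45 and 3.24 in SDHB KO samples and 6.03, 13.4 and 12.3 in SDHA low cells. The 3 groups did not overlap, and the SDHB KO samples held 2 to 4 reads each. Its log2 fold change was -2.83 (SE 0.57) in SDHB KO cells and -2.04 (SE 0.45) in the mean of both SDHB-null groups, with adjusted p = 0.0124 and 0.0247 in edgeR, while DESeq2 gave no adjusted p. The call in SDHB KO cells was lost without parental replicate 1 (adjusted p = 0.281), and that of the mean without either parental sample (0.583 and 0.123). An antisense gene lies next to MIF, and TPI1 and SDHA have pseudogenes that can share their reads.

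**Figure D4:**
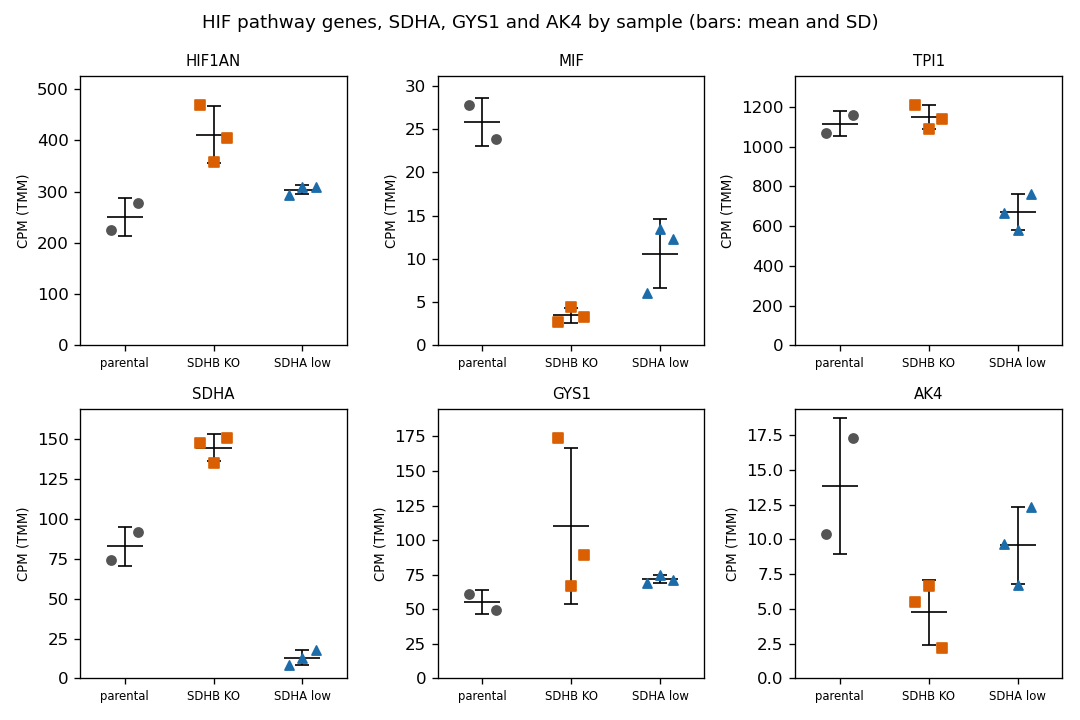
CPM (y axis, from 0) in each sample of the 3 groups (x axis) for HIF1AN, MIF, TPI1, SDHA, GYS1 and AK4, with bars for the mean and the SD (n = 2 for parental cells, n = 3 for the other groups). SDHB KO samples lie above both other groups for HIF1AN and below them for MIF and AK4, and the spread of GYS1 in SDHB KO cells comes from 1 sample at 174 CPM.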

How the data were processed

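RNA from 8 samples was sequenced by 3′ mRNA sequencing. Per the labels and the methods of the study, the authors trimmed with Trimmomatic, took out reads of ribosomal and mitochondrial RNA, and used STAR 2.5.2b for alignment to GRCh38 and for counting per gene. The deposited raw counts are whole reads per gene and were used for all tests. The deposited normalized signal values are these counts divided by a DESeq2 size factor, with the files of SDHB KO replicates 1 and 3 exchanged relative to the raw counts. They were only checked, and the replicate numbers here are those of the raw counts. The 4 rows of each raw file that name no gene (18.8% to 28.6% of reads) were left out.

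Genes with a mean normalized count (BaseMean) above 5 were kept (7550 of 58051), counts were scaled by TMM, and all 8 samples were fitted in 1 quasi-likelihood model of edgeR 4.0.16 in R 4.3.3, with 3 groups and contrasts between them. The SE is the log2 fold change divided by the square root of F. P-values were adjusted by Benjamini-Hochberg over all genes tested in each comparison, and calls are at 0.1, the threshold of the study. CPM uses the reads on tested genes; pooled CPM and limits from 3 reads use all reads on genes and cover counting error only. The biological coefficient of variation was 21.5%. The fit was tested on simulated counts with 1 common spread, and changes were placed only in genes with more reads than many of the set have. The simulation thus does not describe the genes with few reads. DESeq2 1.42.0 was run on all genes. Symbols, positions and overlaps came from GENCODE 44 on GRCh38, and promoters from RefSeq. The alternatives were DESeq2, its size factors, other filters, an adjusted p of 0.05, only the groups compared, a replicate block and each sample left out in turn.

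All 35 genes are named. Of the other lists, those called are named, except for 1 result that is not reported here. The members and lists were chosen with earlier results of these data known. Promoters were printed for genes with an unadjusted p below 0.05 in a comparison, 1 start in the RefSeq table and at most 30 bases of the window inside the GENCODE gene.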

Additional observations from a re-analysis of the deposited data

How the results depend on the processing

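Of 1410 values of the 25 tested genes under the alternatives, 45 had the opposite sign, and 0 were called with the opposite sign. The number of these genes called stayed at 0 in all comparisons but SDHB KO against parental cells, where it was 1 (GYS1) with DESeq2, with no filter, with only the groups compared, and without SDHB KO replicate 2 or SDHA low replicate 2, so that leaving out 1 sample gave 0 to 1. The number of all genes called depended strongly on single samples, and a group left with 1 sample is assumed to vary like the others. In SDHB KO against parental cells the 418 called genes became 0 to 833 when 1 sample was left out (0 without parental replicate 1, 46 without parental replicate 2, 77 without SDHB KO replicate 1, 833 without SDHA low replicate 2), 171 at an adjusted p of 0.05 and 773 with only the groups compared. Between SDHA low and SDHB KO cells the 114 became 39 to 362 with 1 sample left out (362 without SDHA low replicate 2), 64 at 0.05 and 64 with only the groups compared. Between SDHA low and parental cells the 69 became 4 to 172 (4 without parental replicate 1), 13 at 0.05, 152 with no filter and 7 with only the groups compared. In the mean of both groups against parental cells the 295 became 1 to 472 (1 without parental replicate 1) and 111 at 0.05. The causes were not tested.

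The replicate numbers do not pair the samples. Over 7 pairs with the same number the deviations from the group means correlated by -0.07 on average (-0.27 to 0.093). With the replicate block the calls were 199, 59, 12 and 127 in the 4 comparisons, in the order above, and 94, 49, 8 and 51 with the numbers of SDHB KO samples 1 and 3 exchanged, a choice made after seeing the data. With the block, and with the exchanged numbers, the adjusted p in edgeR was 0.188 and 0.234 for HIF1AN, 0.125 and 0.12 for TPI1, 0.185 and 0.253 for MSN, and 0.0784 and 0.101 for MIF in the mean of both groups, and MIF in SDHB KO cells was still called (0.0375 and 0.0496). The median log2 fold change of the 25 genes ran from 0.03 to 0.277, -0.14 to 0.134, -0.034 to 0.332 and -0.002 to 0.26.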
